A study of Caenorhabditis elegans with 12 samples.

Results

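Dimethyl sulfoxide (DMSO) is the solvent that carries many poorly soluble compounds, naringin among them, onto worm plates, and a solvent arm exists to show what the carrier does by itself. The comparison described here sets that arm, DMSO+Glu, against glucose alone, Glu, in whole Caenorhabditis elegans. It uses 6 of the 12 libraries of the series, 3 of each group, and the groups Control and Nar+Glu are given only for their levels. Members are the genes whose mean level over the 12 libraries was above 1 FPKM (fragments per kilobase of transcript, scaled to the number of mapped fragments of the library), 12151 of the 15365 genes listed, and the other 3214 were not tested.

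All worms were wild-type N2 fed the OP50 strain of Escherichia coli from the L4 stage (the last larval stage) for 5 days, moved daily so that the settled adults left their progeny behind. Control plates held no glucose and Glu plates held 2% glucose. DMSO+Glu plates held 2% glucose with DMSO, at 0.1% per the study's methods, and Nar+Glu plates held 2% glucose with 25 µM naringin, a citrus flavonoid, in that solvent. Glucose was thus present on both sides of the comparison, and no group received DMSO without glucose. Labels do not say whether the 3 replicates of a group came from separate cultures, so p-values measure the spread between these samples, which may be technical.

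Surplus glucose in worms is stored as fat in the intestine, and the nuclear receptor NHR-49 switches on genes that activate and burn fatty acids. The intestine also makes yolk proteins, which travel to the oocytes, and many of the secreted lectins, lysozymes and small peptides that respond to bacteria. Expression in whole worms sums over these tissues, over the cuticle-forming hypodermis and over the germ line, in which L4 hermaphrodites make a limited stock of sperm before they switch to oocytes.

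Poly(A)-selected RNA was sequenced, and a level is the FPKM value deposited for a gene. The deposited values summed to between 319171 and 339414 per Glu library and between 322482 and 329761 per DMSO+Glu library, and the median level of the tested genes lay between 10.59 and 11.43 in all 6. Read depth is unknown for these FPKM values, so no counting interval is given. Changes below are DMSO+Glu minus Glu on the log2(FPKM + 1) scale, which understates the change of low genes. A gene was called when limma's moderated test, fitted over all 12 libraries, gave a Benjamini-Hochberg adjusted p below 0.05.

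Most genes stood at close levels with and without DMSO. Between the groups, 152 of 12151 genes (1.25%) were called, 46 higher (0.379%) and 106 lower (0.872%) in DMSO+Glu. On the log2(FPKM + 1) scale, the 95% interval of the change lay within 1.5-fold of no change in either direction for 10458 genes (86.07%). The called genes had a median log2 change of 0.45 among the higher and -0.73 among the lower. On that scale 6 of the 152 changed by more than 1 log2 unit, but it understates the fold of low genes. The mean of nspe-6, for example, fell from 1.695 FPKM in Glu to 0.450 FPKM in DMSO+Glu at a log2 change of -0.90. All 152 had 3 DMSO+Glu values on one side of the 3 Glu values. That separation comes from the same values as the call, so it is not separate support for it. Over all tested genes, 7.28% lay wholly higher and 7.93% wholly lower. The genes nearest the threshold were F56F10.1 (0.34, adjusted p 0.0495) and tag-196 (-0.30, adjusted p 0.0495) inside it, and K07C11.7 (0.32, adjusted p 0.0520) and F49C12.15 (-0.64, adjusted p 0.0511) outside.

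At the thresholds used by the study, an unadjusted p below 0.05 with a change above 1.1-fold, but with limma's p, 1121 genes (9.23%) passed, 455 higher (3.74%) and 666 lower (5.48%). That split became 707 higher and 694 lower after quantile normalization and 484 higher and 444 lower with a library-size covariate in an unmoderated F test, and without Glu replicate 2 it was 287 higher and 738 lower. The study tested with Ballgown, and the covariate with F test is the alternative built like that test. With it no gene reached an adjusted p below 0.05, and 1152 had an unadjusted p below 0.05. The count of 152 fell whichever library was left out. It was 74, 76 and 68 without Glu replicates 1, 2 and 3, 81 and 80 without DMSO+Glu replicates 1 and 3, and 127 without DMSO+Glu replicate 2. Each of these fits also had fewer libraries to test with than the main fit. Of the called genes, 53 kept the call with each of the 6 libraries left out in turn, 18 higher and 35 lower, and 99 lost it without at least 1 library. The Control and Nar+Glu libraries stayed in each of these fits.

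**Figure D1:**
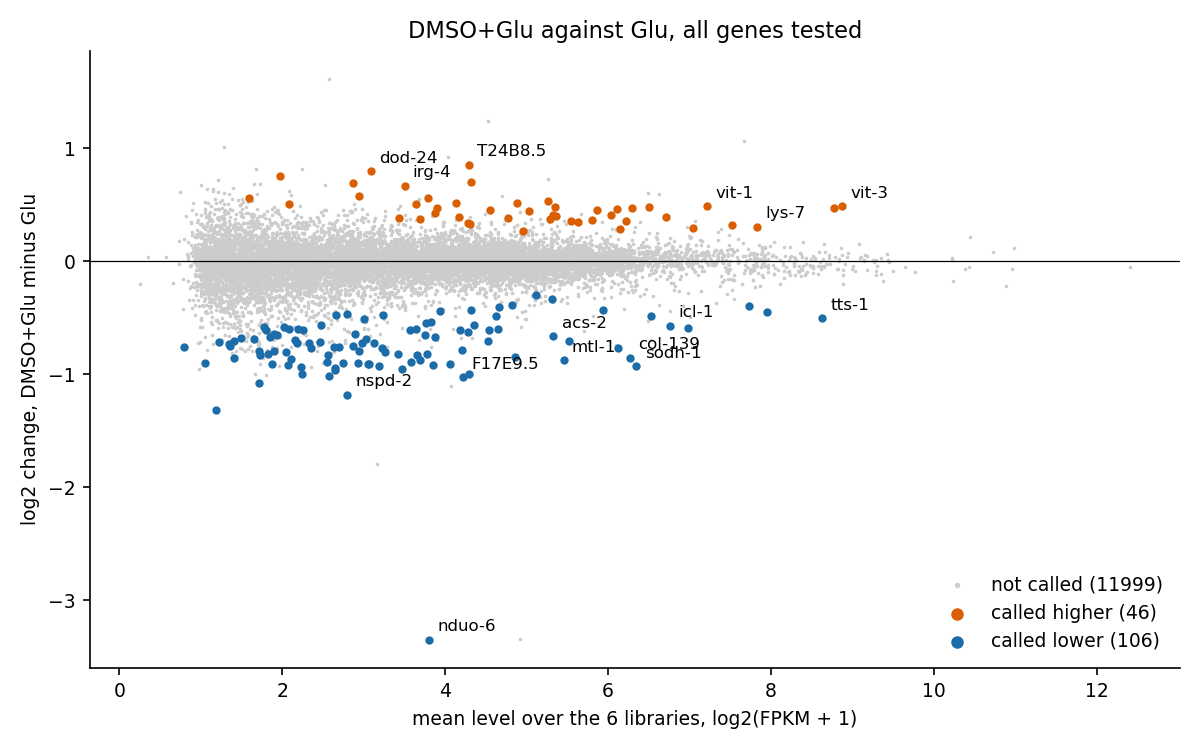
Each point is 1 of 12151 genes, with its mean level over the 6 libraries on the horizontal axis, log2(FPKM + 1), and its log2 change, DMSO+Glu minus Glu, on the vertical axis. Orange points are the 46 genes called higher and blue points the 106 called lower. Called genes occur from low to high levels, and all but 6 lie within 1 log2 unit of 0.

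Enzymes that activate and oxidize fuels included genes that fell with DMSO. Of 21 tested genes listed as NHR-49, its partner factors and its targets, 4 were called lower (19%, against 0.872% of all genes tested) and none higher, and 8 were wholly lower in DMSO+Glu (38.1%, against 7.93%). The median log2 change of the list was -0.16, against 0.00 for all genes tested, and its summed level was 695 to 757 FPKM in Glu and 573 to 592 FPKM in DMSO+Glu. The 4 were sodh-1, acs-2, icl-1 and hacd-1, and all 4 belonged to the 53 that kept their calls. Most of the fall in the summed level came from these 4 genes, so the sum says little about the other members.

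The gene sodh-1 encodes an alcohol dehydrogenase and had the smallest p of all genes in the comparison. Its levels were 109.7, 102 and 106 FPKM in Glu and 56.6, 54.2 and 54.4 FPKM in DMSO+Glu. Every DMSO+Glu library stood far below every Glu library, and the spread within each group was small (log2 change -0.93, SE 0.068, adjusted p 2.00e-05, 3 against 3 libraries). The gene lies at V:11888248-11889650 on the plus strand (WBcel235) and shares exon sequence with sodh-2 on the other strand.

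Fatty acids are activated for mitochondrial oxidation by the acyl-CoA synthetase that acs-2 encodes, and the gene is a standard readout of NHR-49. Its levels were 47.0, 45.8 and 51.9 FPKM in Glu and 32.3, 30.0 and 28.3 FPKM in DMSO+Glu. The groups did not overlap, and the mean fell from 48.3 ± 3.24 to 30.2 ± 2.01 (SD, n = 3; log2 change -0.66, SE 0.075, adjusted p 0.00122). No other member of the acyl-CoA synthetase family was called among 16 tested, which makes 6.25% of the family lower against 0.872% of all genes. With any 1 library left out, the adjusted p of acs-2 was at most 0.00916.

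The glyoxylate cycle enzyme icl-1, which lets worms build sugar from fat, stood at 138, 110.1 and 138 FPKM in Glu and 91.0, 81.5 and 85.6 FPKM in DMSO+Glu. All 3 values with DMSO were below all 3 without it (log2 change -0.57, SE 0.088, adjusted p 0.00440). For hacd-1, a hydroxyacyl-CoA dehydrogenase of fatty acid oxidation, the levels were 70.8, 68.2 and 69.1 FPKM in Glu and 54.6, 47.0 and 52.3 FPKM in DMSO+Glu. Its fall was smaller (log2 change -0.43, SE 0.075, adjusted p 0.00938), and without Glu replicate 1 the adjusted p came to 0.04997. A further target, fmo-2, a flavin-containing monooxygenase, had a change of -0.64 and was not called (adjusted p 0.0765).

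The receptor and its partners did not pass the test. For nhr-49 the change was -0.09 (95% interval -0.30 to 0.12), for nhr-80 -0.23 (-0.58 to 0.11), for nhr-13 -0.07 (-0.33 to 0.18) and for mdt-15, a Mediator subunit that works with the receptor, -0.02 (-0.17 to 0.13). The interval of mdt-15 was the narrowest of these.

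Fatty acid oxidation as a whole did not move in 1 direction. Of 41 tested genes of the mitochondrial and peroxisomal pathways, 1 was called higher (2.44%, against 0.379% of all genes) and 2 lower (4.88%, against 0.872%), and the median change was 0.00. The gene called higher was acox-1.2, a peroxisomal acyl-CoA oxidase that shortens the side chains of ascaroside pheromones, at 13.2, 13.8 and 13.1 FPKM in Glu and 17.5, 22.1 and 19.5 FPKM in DMSO+Glu (log2 change 0.52, SE 0.091, adjusted p 0.00998). Removing Glu replicate 3 ended the call (adjusted p 0.0546). Besides hacd-1, the acyl-CoA dehydrogenase gene acdh-8 fell, from 2.57, 2.09 and 2.19 FPKM to 1.12, 1.18 and 0.764 FPKM (-0.70, adjusted p 0.0378). The call of acdh-8 was lost whichever of the 6 libraries was left out (adjusted p 0.0601 to 0.188).

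No desaturase or elongase was called among 17 tested. The nearest was fat-3, the delta-6 desaturase at the entry to polyunsaturated fatty acids, with 83.9, 79.9 and 82.4 FPKM in Glu and 67.6, 69.0 and 66.9 FPKM in DMSO+Glu (-0.27, adjusted p 0.0544). The delta-9 desaturases, which make monounsaturated fatty acids, had changes of -0.08 for fat-5, -0.17 for fat-6 and 0.18 for fat-7. Their 95% intervals ran from -0.24 to 0.07, from -0.33 to -0.02 and from -0.01 to 0.37. Their signs differed, and after adjustment none passed.

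**Figure D2:**
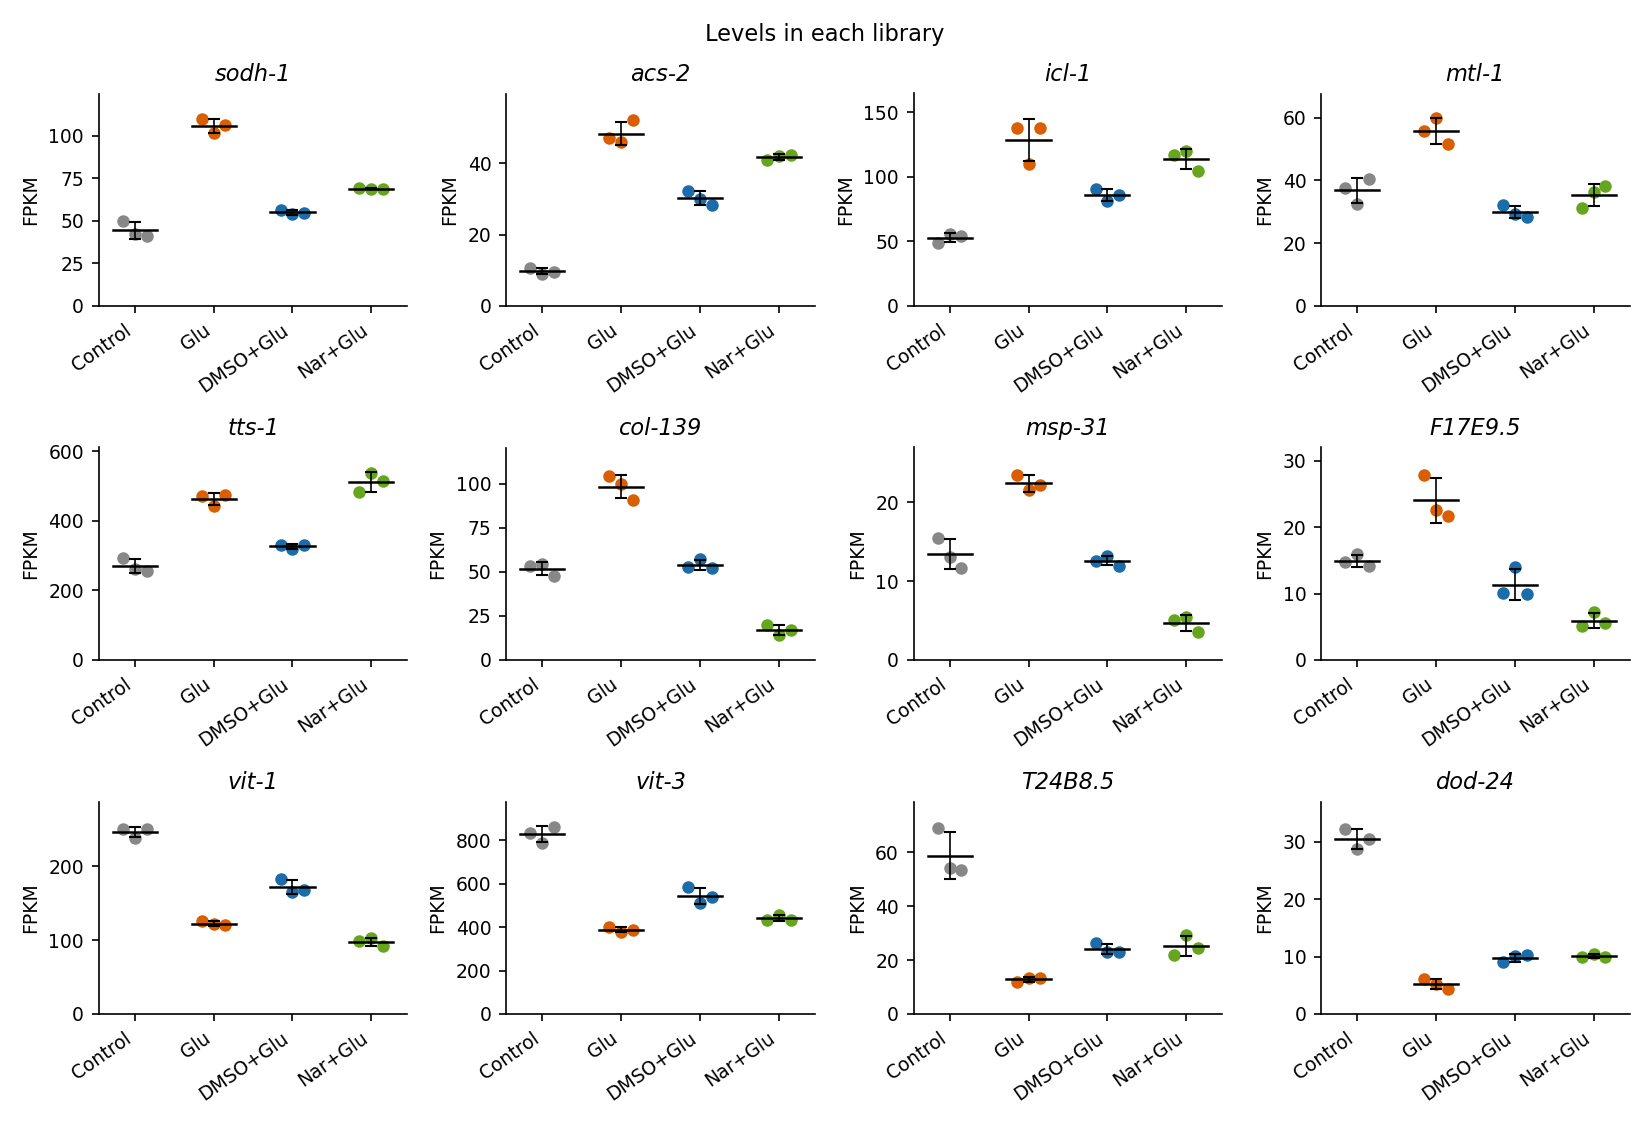
Levels of 12 genes in FPKM (vertical axes, from 0) in the 3 libraries of each group, with the group mean as a bar and the SD as the error bar. In sodh-1, acs-2, icl-1, mtl-1, tts-1, col-139, msp-31 and F17E9.5 the 3 DMSO+Glu points lie below the 3 Glu points, and in vit-1, vit-3, T24B8.5 and dod-24 they lie above.

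DAF-16 is the FOXO transcription factor under insulin signalling, and its target list held calls in both directions. The list was not split by whether DAF-16 raises or lowers a gene, so its counts give no direction of DAF-16 activity. Of 25 tested genes 3 were called lower (12%, against 0.872% of all genes) and 2 higher (8%, against 0.379%), and the median was -0.06. Negative changes were in the majority, with 16 of 25, and 10 genes were wholly lower (40%, against 7.93%) and 4 wholly higher (16%, against 7.28%). The summed level was 1321 to 1400 FPKM in Glu and 1190 to 1223 FPKM in DMSO+Glu, without overlap. The 3 genes called lower, mtl-1, tts-1 and icl-1, together fell by more FPKM than the sum did. The sum therefore does not show a fall of the other members. The largest fall was in mtl-1, which encodes a metallothionein, a small metal-binding protein, at 55.8, 60.0 and 51.6 FPKM in Glu and 32.03, 29.4 and 28.5 FPKM in DMSO+Glu. No value overlapped (log2 change -0.87, SE 0.092, adjusted p 6.13e-04), and the adjusted p stayed at or below 0.00524 with any library left out. The second metallothionein gene, mtl-2, had a change of -0.04 (95% interval -0.23 to 0.15).

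A long noncoding RNA that is abundant in long-lived insulin-signalling mutants, tts-1, stood at 470.3, 444 and 475 FPKM in Glu and 329.9, 319 and 329.8 FPKM in DMSO+Glu. The groups were well apart (log2 change -0.50, SE 0.062, adjusted p 0.00135), and the call was among the 53. Of 282 tested genes annotated as ncRNA it was the only one called (0.355% lower, below the 0.872% of all genes). The third gene called lower in the list was icl-1, given above. Called higher were dod-23 (96.3, 84.9 and 88.0 FPKM in Glu, 122, 109.6 and 123 FPKM in DMSO+Glu; 0.39, adjusted p 0.00908) and the lysozyme gene lys-7. The call of dod-23 was lost without Glu replicate 2 (adjusted p 0.0548), Glu replicate 3 (0.0542) or DMSO+Glu replicate 3 (0.0553). For sod-3, a mitochondrial superoxide dismutase and classic DAF-16 target, the change was 0.03 (-0.40 to 0.47), and for daf-16 it was -0.05 (-0.22 to 0.13).

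Yolk protein genes included members that rose with DMSO. Vitellogenins are large lipoproteins made in the intestine and taken up by oocytes through the receptor RME-2. All 6 vitellogenin genes had a positive change, 3 were called (50.0%, against 0.379% of all genes), 4 were wholly higher (66.7%, against 7.28%), and the median change was 0.34. Their summed level was 5649 to 5938 FPKM in Glu and 6124 to 6821 FPKM in DMSO+Glu, which did not overlap, a ratio of means of 1.14.

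The 3 called were vit-1, vit-3 and vit-4, each among the 53 genes that kept the call. For vit-1 the levels were 126, 121 and 120.3 FPKM in Glu and 183, 165 and 168 FPKM in DMSO+Glu, without overlap (log2 change 0.49, SE 0.058, adjusted p 0.00133). In vit-3 they were 402, 376 and 388 FPKM against 585, 512 and 541 FPKM, and in vit-4 378, 358 and 365 FPKM against 534, 474 and 521 FPKM. Both pairs of groups were well apart, and the changes were 0.49 and 0.47 (adjusted p 0.00135 for each). The genes vit-3, vit-4 and vit-5 are close copies, and how reads were shared among them is uncertain. Sharing of reads between vit-1 and the other vitellogenin genes, vit-2 included, was not checked either.

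The remaining vitellogenin genes did not pass. The change was 0.21 in vit-5 (adjusted p 0.159), 0.12 in vit-6 (0.563) and 0.08 in vit-2 (0.788). Quantile normalization alone brought vit-5 past the threshold (0.27, adjusted p 0.0398). None of 6 tested genes for the yolk receptor and yolk regulators was called, and rme-2 had a change of 0.10 (-0.06 to 0.25). Marker genes of the intestine, the tissue that makes yolk, also summed higher in DMSO+Glu (1525 to 1601 FPKM) than in Glu (1384 to 1443 FPKM), with 1 of 15 called higher (6.67%, against 0.379% of all genes), none at 0 and a median change of 0.06. That gene was the cathepsin B-like protease cpr-6 (0.32, adjusted p 0.0252), which passed in only 2 of the 6 cases with 1 library left out. It missed the threshold without Glu replicate 2 (0.116), Glu replicate 3 (0.114), DMSO+Glu replicate 1 (0.110) or DMSO+Glu replicate 3 (0.101). The part of these intestinal genes in the yolk result was not tested.

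Genes of the response to bacteria also held rises. In the list of immune effector genes, 5 of 36 tested were called higher (13.9%, against 0.379% of all genes) and none lower, 26 had a positive change, 13 were wholly higher (36.1%, against 7.28%) and 4 wholly lower (11%, against 7.93%), and the median was 0.18. Summed over the 39 listed genes in the files, the level was 525 to 555 FPKM in Glu and 593 to 624 FPKM in DMSO+Glu. The largest rise was in T24B8.5, now sysm-1, which encodes a small secreted peptide and is a standard readout of the p38 kinase PMK-1, at 11.83, 13.5 and 13.4 FPKM in Glu and 26.4, 23.1 and 22.98 FPKM in DMSO+Glu. The lowest DMSO+Glu value stood above the highest Glu value (log2 change 0.86, SE 0.11, adjusted p 0.00181). The gene lies at II:9082626-9083193 on the minus strand, no annotated exon overlaps it, and the call was among the 53.

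A pair of genes for secreted proteins with CUB-like domains rose as well. The levels of dod-24 were 6.15, 5.23 and 4.36 FPKM in Glu and 8.98, 10.1 and 10.3 FPKM in DMSO+Glu (log2 change 0.80, SE 0.10, adjusted p 0.00139). Those of irg-4, named for its response to infection, were 7.95, 7.29 and 7.97 FPKM and 12.01, 14.04 and 12.7 FPKM (log2 change 0.67, SE 0.10, adjusted p 0.00376). In both genes the groups were apart, and both calls were among the 53. The caenacin gene cnc-2, for an antimicrobial peptide, stood at 1.601, 1.92 and 2.21 FPKM and 4.17, 3.94 and 3.62 FPKM (0.76, adjusted p 0.00838), and its call was lost without Glu replicate 1 (0.0518).

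The fifth was the C-type lectin gene F56A4.2, which the annotation gives the same name, clec-209, as a near copy at V:2351676-2352932. Both rose by nearly the same amount (0.48 and 0.47, adjusted p 0.00294 and 0.00282), and how reads were split between them is uncertain. Over 73 tested genes with clec names, 1 was called higher (1.37%, against 0.379% of all genes) and 2 lower (2.74%, against 0.872%), clec-47 (-0.33, adjusted p 0.0252) and clec-230 (-0.76, adjusted p 0.0434). The median was 0.06. Of the 73 genes, 12 were wholly higher (16%, against 7.28% of all genes) and 6 wholly lower (8.22%, against 7.93%). The summed level was 1527 to 1623 FPKM in Glu and 1651 to 1720 FPKM in DMSO+Glu. Leaving out single libraries ended the call of clec-230 in each of 6 cases (adjusted p 0.0553 to 0.165) and that of clec-47 in all but the case without DMSO+Glu replicate 3 (0.0280 to 0.121).

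Lysozymes cut bacterial cell walls, and 11 of 13 tested lysozyme genes had a positive change, with 2 called higher (15.4%, against 0.379% of all genes), 7 wholly higher (53.8%, against 7.28%) and a median of 0.16. The summed level was 644 to 669 FPKM in Glu and 722 to 764 FPKM in DMSO+Glu. In lys-1 the levels were 67.01, 60.2 and 65.2 FPKM and 81.2, 79.99 and 87.0 FPKM (0.36, adjusted p 0.0106), and in lys-7 206, 203 and 199.7 FPKM and 245, 246 and 263 FPKM (0.31, adjusted p 0.0173). Neither pair of groups overlapped. The call of lys-1 was lost without Glu replicate 2 (0.0646) or DMSO+Glu replicate 3 (0.0667). That of lys-7 was lost without Glu replicate 1 (0.0611), 2 (0.0720) or 3 (0.0856) or DMSO+Glu replicate 3 (0.102).

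The kinases above these effectors were not called. Of 11 tested genes of the PMK-1 pathway none passed, the median change was -0.01, and pmk-1 itself had 0.02 (-0.18 to 0.23), sek-1 -0.22 (-0.43 to -0.02) and the transcription factor gene atf-7 0.02 (-0.28 to 0.31).

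Sperm genes lay lower in DMSO+Glu as a group. Major sperm proteins build the crawling cytoskeleton of nematode sperm and, once released, signal oocytes to mature. All 28 tested msp genes had a negative change, between -0.93 and -0.48 with a median of -0.74, 25 were wholly lower in DMSO+Glu (89.3%, against 7.93% of all genes), and 10 were called lower (35.7%, against 0.872%). In bulk samples, fewer cells of a type and less RNA per cell cannot be told apart. Many msp genes are near-identical copies, so the share of reads given to each is uncertain and the 28 are not independent measurements, whereas their sum depends less on that split. The summed level was 298, 312 and 304 FPKM in Glu and 185, 179 and 151 FPKM in DMSO+Glu, without overlap, a ratio of means of 0.565.

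Among single members, msp-31 stood at 23.5, 21.5 and 22.1 FPKM in Glu and 12.59, 13.1 and 11.97 FPKM in DMSO+Glu (log2 change -0.78, SE 0.12, adjusted p 0.00495), and msp-152 at 9.31, 8.42 and 9.09 FPKM and 5.13, 4.33 and 3.60 FPKM (log2 change -0.90, SE 0.13, adjusted p 0.00330). Both groups of values were apart. Of the 10 calls, 5 were kept with each library left out (msp-31, msp-53, msp-56, msp-59 and msp-152), and 5 to 7 members were called with 1 library fewer. The call of msp-79 was lost in all 6 cases (adjusted p 0.0905 to 0.148).

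Other genes of sperm went the same way, with 18 of 19 tested negative, a median of -0.51 and 11 wholly lower (57.9%, against 7.93% of all genes). Their summed level was 109.6 to 120.4 FPKM in Glu and 76.3 to 89.0 FPKM in DMSO+Glu. The 2 called (10.5%, against 0.872% of all genes) were of the sperm-specific ssq family, ssq-2 (7.19, 4.79 and 5.73 FPKM in Glu, 3.18, 2.98 and 3.32 FPKM in DMSO+Glu; -0.72, adjusted p 0.0171) and ssq-4 (7.56, 6.70 and 5.48 FPKM and 3.68, 3.24 and 2.83 FPKM; -0.83, adjusted p 0.0193). In ssq-2 the call held only without Glu replicate 2 (adjusted p 0.0173 to 0.0985 over the 6 cases). In ssq-4 the libraries whose removal ended it were Glu replicate 1 (0.116), Glu replicate 2 (0.0856), DMSO+Glu replicate 2 (0.0569) and DMSO+Glu replicate 3 (0.101).

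Small nematode-specific peptide genes of the nspa to nspe families had 4 of 40 called lower (10.0%, against 0.872% of all genes), none higher and a median of -0.10, and members were spread from -1.18 to 0.33. They summed to 439 to 446 FPKM in Glu and 381 to 394 FPKM in DMSO+Glu. The lowest was nspd-2, at 10.7, 7.32 and 7.81 FPKM in Glu and 2.36, 4.202 and 3.24 FPKM in DMSO+Glu. Its values did not overlap (log2 change -1.18, SE 0.20, adjusted p 0.00685), and the call was kept throughout (adjusted p at most 0.0453). The other calls, nspe-6 (-0.90, adjusted p 0.0173), nspd-1 (-0.87, adjusted p 0.0197) and nspa-1 (-0.997, adjusted p 0.0363), were each lost in several of the cases with 1 library left out. That of nspe-6 was lost without Glu replicate 1 (0.0860), Glu replicate 3 (0.0904), DMSO+Glu replicate 1 (0.0985) or DMSO+Glu replicate 2 (0.0548), that of nspd-1 without Glu replicate 1 (0.0724), Glu replicate 2 (0.0921) or Glu replicate 3 (0.0703) and that of nspa-1 without Glu replicate 1 (0.167), Glu replicate 2 (0.0914), DMSO+Glu replicate 1 (0.152) or DMSO+Glu replicate 2 (0.101), with adjusted p in parentheses.

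Oocyte, eggshell and early embryo genes were measured beside the sperm genes. None of 35 tested was called, 31 had a positive change, and the median was 0.04, with all changes between -0.22 and 0.15. Their summed level was 6329 to 6840 FPKM in Glu and 6398 to 6956 FPKM in DMSO+Glu, which overlapped. Genes of embryos and young larvae, which progeny left on the plates would bring, had none of 23 called and a median of 0.06, and their sums overlapped (220 to 249 FPKM in Glu and 240 to 278 FPKM in DMSO+Glu).

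**Figure D3:**
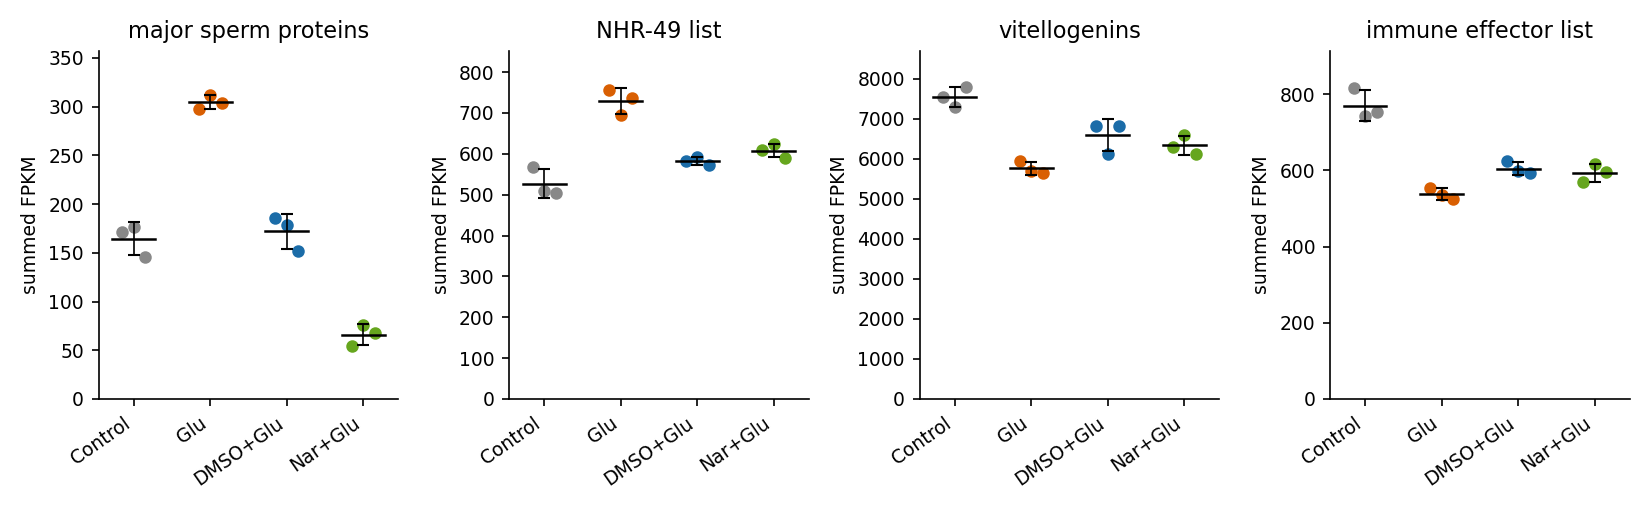
Summed FPKM of 4 gene lists (vertical axes, from 0) in each library of the 4 groups, with the mean as a bar and the SD as the error bar. Major sperm proteins and the NHR-49 list are lower in all 3 DMSO+Glu libraries than in all 3 Glu libraries, and vitellogenins and immune effectors are higher.

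Cuticle collagens, secreted by the hypodermis, had 7 of 109 tested col genes called lower (6.42%, against 0.872% of all genes) and none higher, with a median of -0.06. The largest fall was in col-139, at 104.3, 99.7 and 91.1 FPKM in Glu and 52.5, 57.2 and 52.2 FPKM in DMSO+Glu (log2 change -0.85, SE 0.10, adjusted p 0.00133). Next by p was col-81, at 54.2, 60.8 and 52.7 FPKM and 34.3, 33.5 and 33.5 FPKM (log2 change -0.71, SE 0.086, adjusted p 0.00135), followed by col-62, at 12.7, 12.65 and 12.56 FPKM and 6.98, 5.88 and 7.33 FPKM (-0.82, adjusted p 0.00198). In these 3 genes no DMSO+Glu value reached a Glu value. The other calls were col-129 (-0.77), col-142 (-0.60), col-7 (-0.80) and col-124 (-0.45), and all but col-124 were kept with each library left out (col-124 lost its call without Glu replicate 1 (0.138), Glu replicate 2 (0.0856), Glu replicate 3 (0.0508), DMSO+Glu replicate 1 (0.122) or DMSO+Glu replicate 3 (0.0601)).

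Over the family, 71 of the 109 col genes had a negative change and 38 a positive one, and 22 were wholly lower (20.2%, against 7.93% of all genes) and 7 wholly higher (6.42%, against 7.28%). The summed level was 5853 to 6397 FPKM in Glu and 5462 to 5759 FPKM in DMSO+Glu, without overlap. The adult collagen gene col-19 had a change of -0.26 (-0.42 to -0.10) and was not called. Of 20 body-shape collagens none was called, and their median was 0.15. Marker genes of the hypodermis overlapped in sum (420 to 462 FPKM in Glu and 405 to 462 FPKM in DMSO+Glu), with none of 12 called.

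DMSO is a sulfoxide and an osmolyte, and the lists for sulfur metabolism and stress held no call. None was called among 28 genes of sulfur amino acid, hydrogen sulfide and sulfoxide metabolism (median 0.05), 20 osmotic stress genes (0.06), 18 heat shock genes (0.01), 16 SKN-1 and oxidative defence genes (0.00), 27 glutathione S-transferases (0.01) and 25 ABC transporters (0.04). The glycerol-making enzyme gpdh-1, which rises under osmotic stress in worms, stood at 4.65 to 5.26 FPKM in Glu and 6.92 to 7.79 FPKM in DMSO+Glu (0.45, adjusted p 0.117). The aquaporin gene aqp-1 stood at 16.6, 14.5 and 16.7 FPKM and 9.64, 8.67 and 12.5 FPKM (-0.60, adjusted p 0.0752). The cystathionine lyase gene cth-2, which makes cysteine, had a change of 0.22 (0.06 to 0.37), and hsp-16.1, a small heat shock gene, -0.35 (-0.67 to -0.02).

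In the sulfur list, 20 of 28 genes had a positive change and 9 were wholly higher (32.1%, against 7.28% of all genes), and the summed level was 924 to 932 FPKM in Glu and 957 to 1018 FPKM in DMSO+Glu, without overlap. Heat shock genes also summed higher, 1182 to 1213 FPKM against 1240 to 1273 FPKM, with 9 of 18 positive. The ABC transporters summed to 257 to 273 FPKM in Glu and 278 to 285 FPKM in DMSO+Glu, with 20 of 25 positive and 7 wholly higher (28%, against 7.28% of all genes). No single member of these 3 lists passed, and the sums of the osmotic, oxidative defence and glutathione S-transferase lists overlapped.

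In each of 2 drug-metabolizing families 1 gene was called, too few to read as a result about the family. Of 42 tested cytochrome P450 genes 1 was called lower (2.38%, against 0.872%), cyp-34A9, at 23.4, 19.4 and 20.3 FPKM in Glu and 12.5, 14.4 and 13.2 FPKM in DMSO+Glu (log2 change -0.61, SE 0.085, adjusted p 0.00282). The groups did not overlap, the call was among the 53, and an exon of B0213.24 lies on the other strand. Of 44 UDP-glucuronosyltransferase genes, whose enzymes attach sugar to foreign compounds, 1 was called higher (2.27%, against 0.379%), ugt-22 (0.40, adjusted p 0.0457), and the call was lost without each of the 6 libraries (0.0773 to 0.189). The medians of the families were 0.02 and 0.03.

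Markers of other tissues held no call. Body wall muscle markers were wholly lower in 6 of 14 genes (42.9%, against 7.93% of all genes) and summed to 1275 to 1353 FPKM in Glu and 1142 to 1216 FPKM in DMSO+Glu, without overlap, but none was called (median -0.15). The troponin gene tnt-2 had the largest change among them (-0.44, adjusted p 0.186), and the myosin heavy chain gene unc-54 had -0.17 (-0.36 to 0.03). Neuron markers had none of 14 called and a median of -0.05, and neuropeptide genes none of 93 and -0.09. The part of muscle RNA in the lower calls was not tested. None of 80 cytosolic ribosomal protein genes, 41 genes of glycolysis and the citrate cycle and 28 autophagy genes was called, with medians of -0.04, 0.03 and -0.06. The autophagy genes, 22 of 28 of them negative, summed to 876 to 956 FPKM in Glu and 827 to 866 FPKM in DMSO+Glu. The ribosomal protein genes, 64 of 80 negative, summed to 24680.0 to 25190.0 FPKM and 23330.0 to 24560.0 FPKM. Neither pair of sums overlapped, whereas those of glycolysis and the citrate cycle did.

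**Figure D4:**
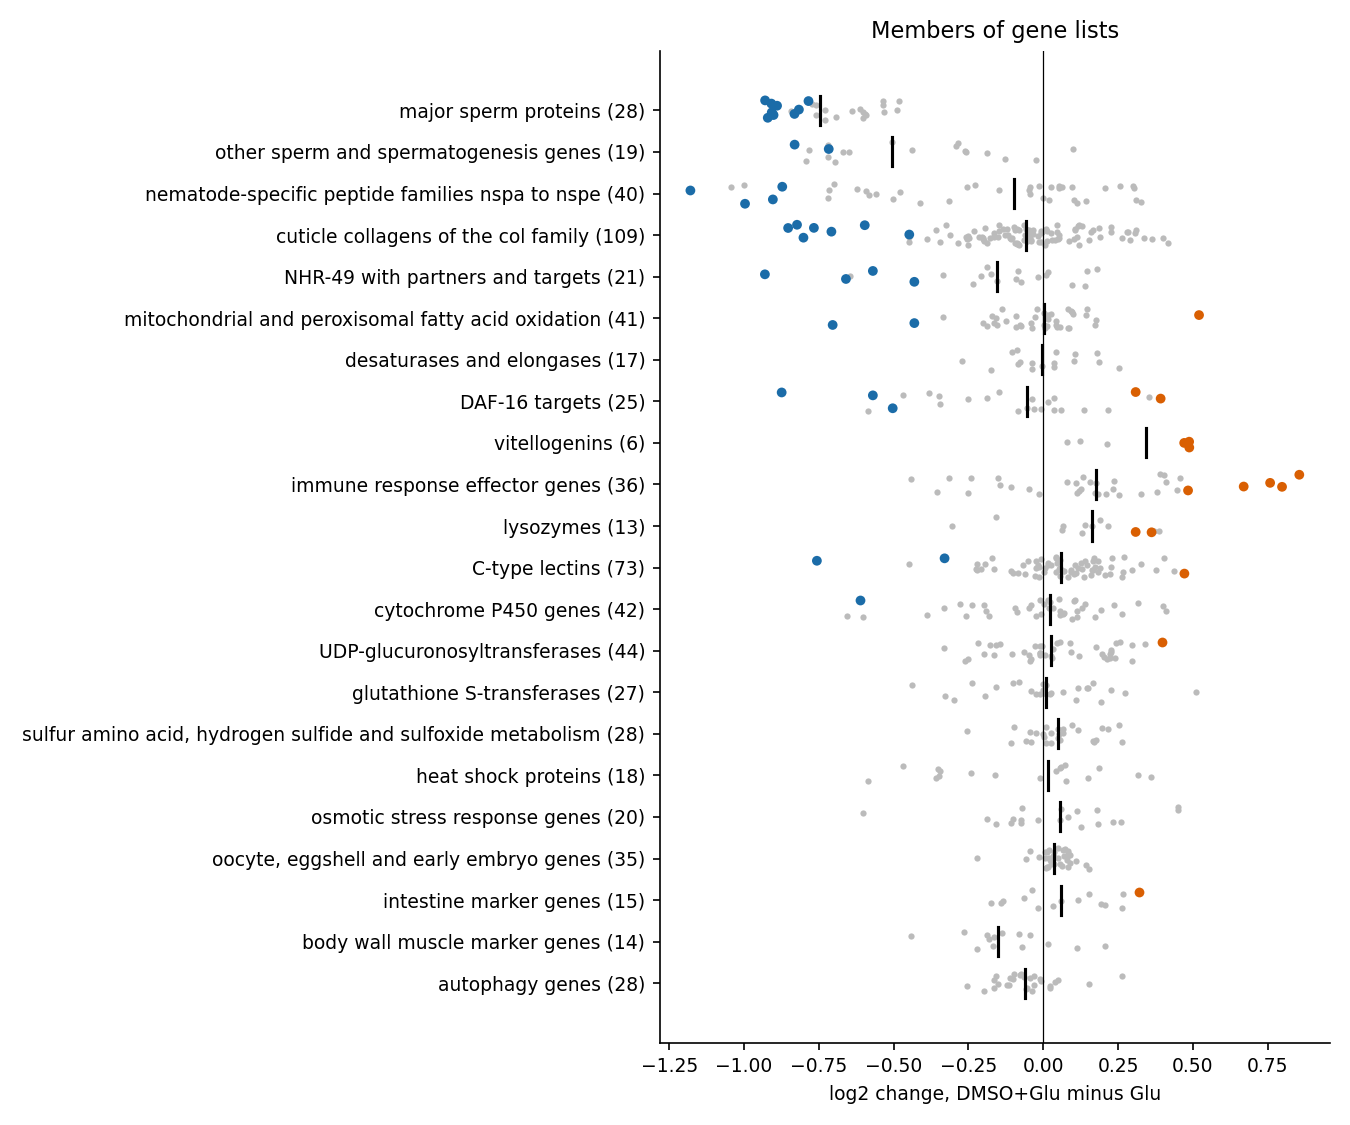
Log2 change, DMSO+Glu minus Glu (horizontal axis), of each tested member of 22 gene lists, with the number tested in parentheses and the list median as a black bar. Orange members were called higher, blue members called lower and grey members not called. Major sperm proteins lie wholly below 0, vitellogenins wholly above, and most other lists are centred near 0.

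Respiratory genes encoded in the mitochondrion had 1 of 11 called (9.09%, against 0.872% lower of all genes), nduo-6, a subunit of complex I, with the largest change of all genes (-3.35, adjusted p 0.0171). Its levels were 23.2, 26.1 and 18.2 FPKM in Glu and 10.3, 0.0294 and 0.0211 FPKM in DMSO+Glu. DMSO+Glu replicates 2 and 3 were near 0 while replicate 1 was not, and the same appeared without DMSO in 2 of the 3 Glu libraries for ndfl-4, at 11.06, 0.0165 and 0.0217 FPKM, against 7.72, 6.62 and 4.43 FPKM in DMSO+Glu. The annotation places nduo-6 at MtDNA 113 to 549 and ndfl-4 at 549 to 783, so the genes meet at a shared base, and how fragments were assigned between them is uncertain. Only the removal of DMSO+Glu replicate 1 kept nduo-6 past the threshold, and each other removal ended the call (3.31e-08 to 0.0861 over the 6 removals).

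Other genes of the mitochondrial genome had smaller changes. The changes of nduo-1, nduo-4 and nduo-5, also of complex I, were -0.20, -0.03 and -0.14, and those of ctc-1, ctc-2 and ctc-3, of complex IV, were -0.07, -0.11 and -0.22. None of these was called. The cytochrome b gene ctb-1 had -0.10 (-0.25 to 0.06) and atp-6, of the ATP synthase, -0.11 (-0.29 to 0.06). The direction of ctb-1 turned after quantile normalization (0.057) and that of nduo-4 with the library covariate (0.040).

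Abrupt values of that kind also occurred in genes that were not called. In Y11D7A.21 the levels were 58.2, 33.4 and 35.7 FPKM in Glu and 0.228, 0.218 and 47.1 FPKM in DMSO+Glu (-3.34, adjusted p 0.322), near 0 in 2 libraries only. In R166.6 all libraries but Glu replicate 3 (47.7 FPKM) were at 0.170 FPKM or less, and in F53H2.4 only Glu replicate 3 was near 0 (0.262 FPKM).

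The study names a set of metabolic and autophagy genes, some of them only as background and act-1 as its PCR reference. Of the 19 genes it names, acs-2 alone was called (5.26% lower, against 0.872% of all genes), and 18 were not. The change was negative in 13 of 19, with a list median of -0.09. Their summed level was 1170.0 to 1264 FPKM in Glu and 1115 to 1163 FPKM in DMSO+Glu. That sum is weighted toward abundant members such as lgg-1 and act-1. After acs-2 the largest change was in hlh-30, the worm TFEB, at 51.2, 35.4 and 42.5 FPKM in Glu and 36.9, 36.4 and 33.3 FPKM in DMSO+Glu, which overlapped (change -0.25, 95% interval -0.52 to 0.01). The autophagosome marker lgg-1 stood at 215, 209.5 and 213 FPKM and 188, 188 and 179 FPKM (-0.20, adjusted p 0.210). For bec-1, a beclin, and unc-51, the autophagy-starting kinase, the intervals were -0.15 to 0.23 and -0.26 to 0.05.

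The transcription factor genes gave intervals on both sides of 0, from -0.27 to 0.32 for pha-4, from -0.37 to 0.16 for skn-1, from -0.29 to 0.03 for sbp-1, from -0.31 to 0.13 for yap-1 and from -0.20 to 0.22 for egl-44. The kinase subunit gene aak-2, of AMPK, had a change of -0.07 (-0.24 to 0.10). For acs-4 the change was 0.08 (-0.05 to 0.21) and for ech-6, an enoyl-CoA hydratase, 0.04 (-0.10 to 0.18). The actin gene act-1, a common reference in PCR, had -0.09 (-0.22 to 0.03). On the log2(FPKM + 1) scale, a change of 1.5-fold or more in either direction lay outside all of these intervals.

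**Figure D5:**
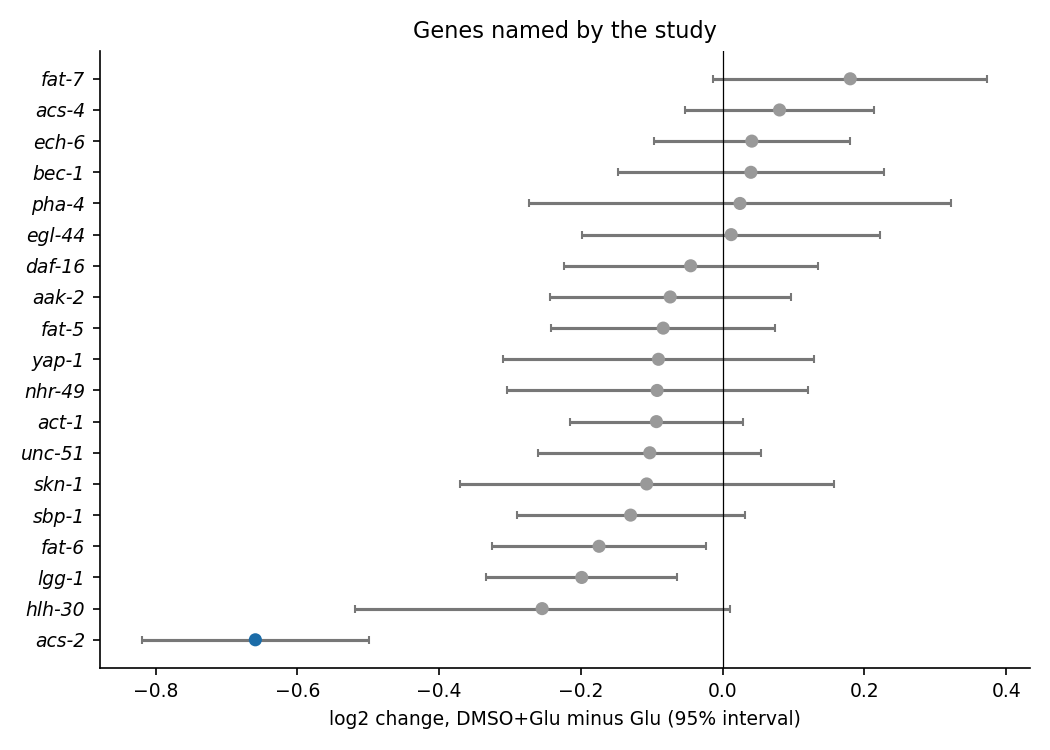
Log2 change, DMSO+Glu minus Glu (horizontal axis), of the 19 genes the study names, with the 95% interval as a line. The blue point, acs-2, is the only gene called, and the 18 grey points lie between -0.25 and 0.18.

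Among the largest changes past the threshold were genes in no list. The gene F17E9.5 fell from 27.9, 22.6 and 21.6 FPKM in Glu to 10.0, 14.02 and 10.00 FPKM in DMSO+Glu (log2 change -1.03, SE 0.14, adjusted p 0.00236), and Y59E9AL.3, which the annotation names nsph-4.2, from 5.93, 5.36 and 4.26 FPKM to 2.23, 2.52 and 1.90 FPKM (log2 change -0.94, SE 0.14, adjusted p 0.00349). Both kept their calls with each library left out, and no values overlapped. The other large falls of genes in no list that averaged at least 5 FPKM in 1 group were Y59E9AL.6 (-0.999), C34D4.3 (-0.95), F08B4.8 (-0.94), F26B1.8 (-0.97) and fipr-24 (-1.02). With 1 library left out, Y59E9AL.6 lost its call without Glu replicate 2 (0.0588) or DMSO+Glu replicate 1 (0.0562), F08B4.8 without Glu replicate 2 (0.0914), Glu replicate 3 (0.0724), DMSO+Glu replicate 1 (0.0653) or DMSO+Glu replicate 3 (0.0861) and C34D4.3 without Glu replicate 1 (0.0895), Glu replicate 2 (0.0888), Glu replicate 3 (0.0862), DMSO+Glu replicate 1 (0.0572) or DMSO+Glu replicate 3 (0.120), with adjusted p in parentheses. In fipr-24 the call was kept only without DMSO+Glu replicate 2 (adjusted p 0.0196 to 0.197 over the 6 cases), and in F26B1.8 in no case (0.0935 to 0.152).

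Below that level, F14H12.7 fell from 2.104, 2.68 and 1.85 FPKM in Glu to 0.943, 0.0803 and 0 FPKM in DMSO+Glu, without overlap (log2 change -1.32, SE 0.21, adjusted p 0.00611). It was listed at 0 in DMSO+Glu replicate 3, its change was next in size to that of nduo-6 among called genes, it kept the call with each library left out, and it was named after its values were seen. Of the largest rises in no list, Y48E1B.8 went from 14.5, 13.2 and 14.9 FPKM to 20.8, 24.8 and 25.7 FPKM (log2 change 0.70, SE 0.10, adjusted p 0.00349) and C14C6.5 from 33.6, 28.6 and 28.6 FPKM to 41.9, 43.6 and 47.4 FPKM (log2 change 0.54, SE 0.076, adjusted p 0.00294). Both were apart from Glu in every library and kept their calls, and an exon of clec-145 overlaps Y48E1B.8 on the other strand. The rises of C45E5.1 (0.69), drd-1 (0.58), F42A10.6 (0.56), F23D12.11 (0.52) and Y37H2A.13 (0.51) each lost the call in more than 1 of the 6 cases with 1 library left out. The call was lost in C45E5.1 without Glu replicate 1 (0.0860), Glu replicate 3 (0.0705), DMSO+Glu replicate 2 (0.0637) or DMSO+Glu replicate 3 (0.0861), in F42A10.6 without Glu replicate 1 (0.119), Glu replicate 3 (0.0936), DMSO+Glu replicate 1 (0.0935) or DMSO+Glu replicate 2 (0.0877) and in F23D12.11 without Glu replicate 2 (0.0526) or DMSO+Glu replicate 3 (0.0553). In Y37H2A.13 it was kept only without DMSO+Glu replicate 2 (0.0390 to 0.167 over the 6 cases), and in drd-1 in no case (0.0772 to 0.144).

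Over the nuclear chromosomes, the share of falls was highest on IV (31 of 2027 tested, 1.53%) and that of rises on V (17 of 2238, 0.760%), against 0.872% and 0.379% over all tested genes. Chromosome III had the lowest share of falls (5 of 1959, 0.255%). Several msp and ssq genes named above lie on IV, msp-53 at IV:5064678-5065061, msp-59 at IV:5312728-5313111 and ssq-2 at IV:4996142-4997559.

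Levels in the other groups place these values. The contrasts below share the Glu or the DMSO+Glu libraries, so the changes are not independent and are given side by side only. In Control, without glucose, sodh-1 was at 41.2 to 50.1 FPKM, and in Nar+Glu at 68.7 to 69.2 FPKM, beside 102 to 109.7 in Glu and 54.2 to 56.6 in DMSO+Glu. The change of sodh-1 was 1.24 for Glu minus Control (adjusted p 3.37e-08) and 0.32 for Nar+Glu minus DMSO+Glu (0.0110).

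For acs-2, Control stood at 8.95 to 10.6 FPKM and Nar+Glu at 40.9 to 42.2 FPKM, with changes of 2.20 for Glu minus Control (adjusted p 5.27e-10) and 0.46 for Nar+Glu minus DMSO+Glu (0.00212). For mtl-1 Control stood at 32.6 to 40.3 FPKM and Nar+Glu at 31.3 to 38.3 FPKM, with changes of 0.59 (5.84e-04) and 0.22 (0.133). For tts-1 the values were 255 to 294 FPKM in Control and 482 to 539 FPKM in Nar+Glu, with changes of 0.78 (1.60e-06) and 0.65 (2.53e-05). Whether a level in DMSO+Glu lay nearer to Control than to Glu was not tested.

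For vit-1, Control stood at 239 to 251 FPKM and Nar+Glu at 91.8 to 103 FPKM. The changes of vit-1 were -1.005 for Glu minus Control (adjusted p 5.09e-08) and -0.81 for Nar+Glu minus DMSO+Glu (9.05e-07). For T24B8.5 Control stood at 53.4 to 68.8 FPKM and Nar+Glu at 22.03 to 29.3 FPKM, with changes of -2.096 (2.77e-08) and 0.05 (0.807). The summed msp level was 145 to 177 FPKM in Control and 54.2 to 76.4 FPKM in Nar+Glu, so Glu was the highest of the 4 groups and Nar+Glu the lowest, and Control and DMSO+Glu (151 to 185 FPKM) overlapped.

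Nar+Glu carries naringin and solvent together, so against Glu the 2 agents cannot be told apart. Set against Glu, Nar+Glu had a change of -0.61 in sodh-1 (adjusted p 5.12e-05), -0.20 in acs-2 (0.117), -0.32 in vit-1 (0.00266) and 0.91 in T24B8.5 (1.27e-04). Over all genes, 1199 of 12151 (9.87%) were called for Nar+Glu against DMSO+Glu and 1017 (8.37%) for Nar+Glu against Glu, beside the 152 (1.25%) of the solvent comparison. These counts share libraries, and their difference was not tested.

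At the level of transcripts, 38 of 17588 tested (0.216%) were called, 16 higher (0.091%) and 22 lower (0.125%), and 34 of them belonged to called genes. The other 4 had genes that were not called. Transcript W01A11.5.2 of cpt-6 stood at 1.76, 1.77 and 1.42 FPKM in Glu and 0.00599, 0.00873 and 0.00671 FPKM in DMSO+Glu (-1.39, adjusted p 0.0412). Transcript W03F11.6f of afd-1 stood at 9.12, 7.47 and 7.28 FPKM and 3.10, 2.503 and 3.51 FPKM (-1.15, adjusted p 0.0452). In W09G3.1b the levels were 0.409, 0.738 and 0.435 FPKM in Glu and 3.88, 3.52 and 5.01 FPKM in DMSO+Glu (1.75, adjusted p 0.0429), and in Y49F6B.9a.2 9.53, 11.5 and 11.5 FPKM and 4.40, 4.97 and 6.71 FPKM (-0.91, adjusted p 0.0468). All 4 were without overlap, while the changes of their genes lay between -0.41 and 0.17. With 1 library left out, Y49F6B.9a.2 was called in 1 of 6 cases (adjusted p 0.0376 to 0.193) and the other 3 in none (0.0847 to 0.160). None of the 4 passed with the replicate number as a block (0.110 to 0.169) or with the library covariate (0.190 to 0.531). Of the 38 called, 6 kept the call with each library left out, 2 with the block (1 each of sodh-1 and F21C10.10) and 0 with the covariate. The count of 38 was 16 without Glu replicate 2 and 24 without Glu replicate 3, and 22, 12 and 18 without DMSO+Glu replicates 1, 2 and 3.

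Circular RNAs, made by back-splicing and resistant to exonucleases, were deposited as raw counts of back-splice reads. Total counts were 1142, 1000 and 1220 in Glu and 1550, 1265 and 929 in DMSO+Glu. The DMSO+Glu libraries held both the highest and the lowest of the 6, and the means, 1121 ± 112 and 1248 ± 311 (SD, n = 3), were not separated by an exact two-sided permutation test (p = 0.6, where 3 against 3 libraries cannot go below 0.1). Without DMSO+Glu replicate 1 the difference turned from 127 to -23.7, and without DMSO+Glu replicate 3 it was 287. Of 2136 circular RNAs, 239 had at least 2 counts in at least 3 libraries, and none was called by edgeR's quasi-likelihood test (0%) or by DESeq2. At an unadjusted p below 0.05 there were 12 by edgeR and 4 by DESeq2.

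The smallest p values belonged to a circular RNA listed as cel_circ_0000162, with 0, 0 and 0 counts in Glu and 2, 6 and 5 in DMSO+Glu (edgeR p 0.00758, adjusted p 0.655 over all 239), and to one from crh-2, a CREB-related gene, at II:5183688-5184600 on the minus strand, with 0, 0 and 0 in Glu and 3, 7 and 0 in DMSO+Glu (adjusted p 0.655). Counts of this size leave changes of several-fold undetectable. The study describes enrichment of poly(A) RNA before library construction and no separate library for circular RNAs.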

How the data were processed

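Gene and transcript levels were deposited as FPKM, which the authors made by mapping poly(A)-selected, stranded reads to WBcel235 with HISAT2 2.1.0 and estimating abundance with StringTie 1.3.3 and Ballgown. The authors also tested differential expression of mRNAs with Ballgown. For circular RNAs the deposited unit is the raw count of back-splice reads found by STAR 2.5.2b and CIRCexplorer2 in the authors' hands. FPKM is relative to each library's mapped total, so a gene's value also moves with the rest of its library. No batch or date is given in the labels.

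The test took genes and transcripts that averaged more than 1 FPKM in the 12 libraries and was made on log2(FPKM + 1) with limma 3.58.1 (R 4.3.3), with a variance trend and all 4 groups in the fit, and p-values were adjusted by Benjamini-Hochberg over all genes tested. Counts of circular RNAs with at least 2 reads in at least 3 libraries were tested with edgeR 4.0.16 (quasi-likelihood, TMM), with DESeq2 1.42.0 as the alternative. The scripts were tested on simulated data. Gene lists and members were chosen with earlier results of these data known, so list counts are descriptions, given beside the share of all tested genes called.

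Genes named are the 12 largest rises and 12 largest falls among called genes without overlap whose higher group averaged 5 FPKM or more, the vitellogenins, the mitochondrially encoded genes, the genes the study names, and up to 4 called genes of each other list, by smallest p. The genes cnc-2, F14H12.7, col-7, col-124, col-129, msp-56 and those quoted for a list or for abrupt values were added after their values were seen. Names in the files were matched to the annotation for 15242 of 15365 genes.

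Alternatives were 2 other pseudocounts, no filter or a mean above 5 FPKM, median-ratio scaling, quantile normalization, the 6 libraries alone, a library covariate with an unmoderated F test, array weights, a fit without the variance trend, a block for the replicate number and leaving out each library in turn.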

Additional observations from a re-analysis of the deposited data

How the results depend on the processing

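All 54 called genes among the 85 named kept their direction in each alternative that tested them (16 or 17 a gene), and 28 lost the call only with the library covariate and unmoderated F test, which called 0 genes in all (0 higher, 0 lower). Against 152 genes called, a mean above 5 FPKM gave 100 (57 lower), a pseudocount of 0.1 gave 111 (70 lower), array weights 218 and quantile normalization 192. Leaving out 1 library gave 68 to 127, with 24 to 36 higher and 44 to 91 lower. At the study's thresholds, with limma's p, a mean above 5 FPKM gave 714 (383 lower), quantile normalization gave 707 higher, and 287 to 481 were higher with 1 library left out.

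Samples with the same replicate number did not deviate together (r 0.0354, -0.0587 and -0.0382), and the main fit did not pair them. These values cannot show that the numbers carry no batch, which the labels do not state. With the replicate block, 130 genes were called, 116 of them among the 152, and 2 transcripts (0 higher, 2 lower). Transcripts fell from 38 to 24 (12 lower) with no filter, to 7 (4 higher, 3 lower) with the covariate and to 18 (2 higher) with no variance trend. With 1 library left out there were 12 to 31, with 6 to 17 higher and 5 to 14 lower. No circular RNA was called by edgeR or DESeq2 in any setting, and the difference in total counts ran from -23.7 to 287 with 1 library left out.

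The 9 named genes that changed direction were all uncalled. They were ctb-1 with quantile normalization (0.057), nduo-4 with the covariate (0.040) and over libraries left out (-0.16 to 0.069), and pha-4 (-0.017, and -0.15 to 0.16) and egl-44 (-0.010, and -0.066 to 0.054) with array weights and over libraries left out. Over libraries left out, nduo-2 ran from -0.20 to 1.076, skn-1 from -0.22 to 0.028, ech-6 from -0.0022 to 0.090, daf-16 from -0.13 to 0.012 and bec-1 from -0.0080 to 0.12. The cause of these differences was not tested. Groups of 3 libraries limit all calls, and the FPKM values carry no depth.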

Other observations

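The following genes were in no list fixed for the report, or in a list added later, and were chosen after their values were seen, so their calls are descriptions. Galectins, which bind galactose-containing sugars, held calls in both directions. Of 12 tested, lec-6 and lec-8 were called higher (16.7%, against 0.379% of all genes) and lec-2 lower (8.33%, against 0.872%). The median log2 change was 0.12. The levels of lec-2 were 112, 104.9 and 104.7 FPKM in Glu and 76.8, 77.4 and 74.4 FPKM in DMSO+Glu (-0.49, adjusted p 0.00135 by limma). Those of lec-6 were 55.0, 54.4 and 57.2 FPKM and 76.5, 70.8 and 74.8 FPKM (0.41, adjusted p 0.00611). In all 3 genes the groups did not overlap and the call was kept with each library left out.

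Enzymes of other pathways were among the called genes as well. The aldehyde dehydrogenase gene alh-5 stood at 6.36, 7.06 and 7.05 FPKM in Glu and 3.77, 4.21 and 2.99 FPKM in DMSO+Glu (-0.76, adjusted p 0.00349). The gene smd-1, for the S-adenosylmethionine decarboxylase of polyamine synthesis, stood at 33.8, 30.9 and 35.4 FPKM and 46.3, 43.0 and 44.6 FPKM (0.41, adjusted p 0.00685). Neither gene had overlapping groups. The gene with the second smallest p of the comparison, F21C10.10, stood at 36.1, 35.5 and 36.7 FPKM in Glu and 19.9, 20.2 and 18.9 FPKM in DMSO+Glu (-0.84, adjusted p 9.21e-05), and an exon of F21C10.9 overlaps it on the other strand. The venom allergen-like gene vap-2 stood at 3.00, 3.90 and 3.41 FPKM and 1.081, 1.25 and 0.977 FPKM (-1.07, adjusted p 0.00153), a change of more than 2-fold, and an exon of ttr-14 overlaps it on the other strand. These 4 calls were kept with each library left out.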
